A study of Mus musculus with 4 samples.

Results

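Genes of homologous recombination, of the Fanconi pathway and of the DNA damage checkpoint were followed in early T lineage progenitors (ETP), the most immature precursors in the mouse thymus. They are 43 genes listed by name for their known roles. Of them, 42 had a row among the 23361 genes of the table. The name *Claspn* had no row, and the row named *Clspn*, the usual symbol of the claspin gene, is given beside the members and not counted with them. RNA was sequenced in 4 libraries of ETP sorted from the thymus of female C57BL6 mice, 2 from young mice of 4 to 6 weeks and 2 from old mice of 72 weeks, which the deposited table names 20m. No treatment or engineered allele is given for either age. The young mice came from a university colony and the old mice from the National Institute on Aging, so age and colony cannot be told apart. The sources do not say if same-age libraries are separate animals, and the p-values rest on library-to-library spread that may be technical.

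Homologous recombination repairs a broken chromosome by copying the intact sister chromatid. Nucleases first trim the broken ends to single strands, BRCA2 and its partners prepare these strands to pair with the intact copy, and helicases then take the joined molecules apart. The Fanconi pathway uses the same machinery to remove crosslinks between DNA strands, and the kinases ATM and ATR halt the cell cycle while damage is repaired. Dividing progenitors depend on these genes because replication forks stall and break, and thymocytes also meet programmed breaks when receptor genes are rearranged.

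The young libraries held 16658864 and 6414915 fragments and the old 11816478 and 4839341, so replicate 2 was the shallower in each age. Levels are given as normalized CPM (CPM, the fragments of a gene per 1e+06 fragments after TMM scaling). Pairs of values are in the order replicate 1, replicate 2 throughout. A gene with a count of 0 could still have 3 counts, equal to between 0.176 and 0.654 of these units by counting error alone. The genes of the sorting gate were present in both ages, with *Kit* at 764 to 1096 and *Cd44* at 496 to 636 normalized CPM, and *Il2ra*, which the gate excludes, at 22.9 to 39.9. The libraries also differed in markers of other cells. Higher estimates in old ETP were found for 14 of 14 dendritic cell markers, with summed levels of 1686.5 and 2307.2 normalized CPM in the young and 8693.5 and 25634.4 in the old libraries. Of these, *Zbtb46*, *Batf3* and *Ciita* passed the filter on low levels described next through the old libraries alone. They had to be higher on the filter's own scale, which pulls their CPM estimates the same way. Of 10 tested markers of NK and innate lymphoid cells, 9 had higher estimates in old ETP. Sums of the list were 308 and 385 in the young libraries, against 492 and 898 in the old. *Ncr1* and *Klrk1* likewise had to be higher on the filter's scale. Sums for B cell markers (26.6 to 40.1), erythroid markers (5.6 to 16.2), stromal markers (142 to 178), later T cell markers (58.9 to 134) and myeloid markers (739 to 2057.5) overlapped between the ages, and the T cell marker *Ptcra* was at 0 in every library. Within the later T cell list, genes differed in direction. The signaling subunit gene *Cd3e* was at 3.33 and 2.88 normalized CPM in the young libraries, against 11.2 and 36.2 in the old (adjusted p = 0.00142 in DESeq2 and 0.379 in edgeR). The recombinase gene *Rag2* was at 47.0 and 96.8 in the young libraries, against 20.95 and 43.6 in the old (adjusted p = 0.977 in edgeR). The part that any of these play in the values below was not tested, and in sorted populations a lower level cannot be told apart from fewer cells that carry the transcript.

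Most of these repair and checkpoint genes had lower estimates in old than in young ETP, and no member passed the test with age as the only term. Of the 40 members tested, 35 had a lower and 5 a higher estimate in old ETP, where 53.4% of the 10080 tested genes had a lower one. The median log2 fold change from young to old was -0.44 over the members and -0.03 over all tested genes. In 21 of the 40, both old libraries lay below both young libraries, and in 1, *Fanca*, both lay above, against 15.5% and 16.1% of all tested genes. Genes were tested when FPKM, the authors' length-scaled level, reached 1 in at least 2 libraries. Of the 40 members, 37 reached it in all 4 libraries. *Fancb* reached it in the young libraries alone, and a member that enters this way has to be lower in old ETP in FPKM. For estimates on the CPM scale the filter pulls the same way without fixing the direction.

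With age as the only term, none of the members passed. With edgeR's quasi-likelihood test, 0 of 40 had an adjusted p under 0.05 (0% of all tested genes were called in either direction), and 0 had an unadjusted p under 0.05 (0.913% of all tested genes did and were lower, 4.65% did and were higher), with the smallest at 0.0599 for *Fancb*. DESeq2 called 0 members, and 0 had an unadjusted p under 0.05 there either, while it called 0.149% of all tested genes lower and 2.08% higher. With limma on log2(FPKM + 1), 0 members passed and 1 of 40, *Brca2*, had an unadjusted p under 0.05. Of the 10080 tested genes, 0 passed there and 290 had an unadjusted p under 0.05. The adjusted p in edgeR ran from 0.977 to 0.9995 over the members, and the standard errors of their log2 fold changes from 0.24 to 0.55. On the authors' FPKM scale the median of all tested genes was itself -0.27, and the members' median of -0.56 lay 0.289 below it, against 0.403 below on the CPM scale. FPKM summed over all genes differed between libraries, at 281542 and 135313 in the young, against 230420 and 122998 in the old.

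**Figure D1:**
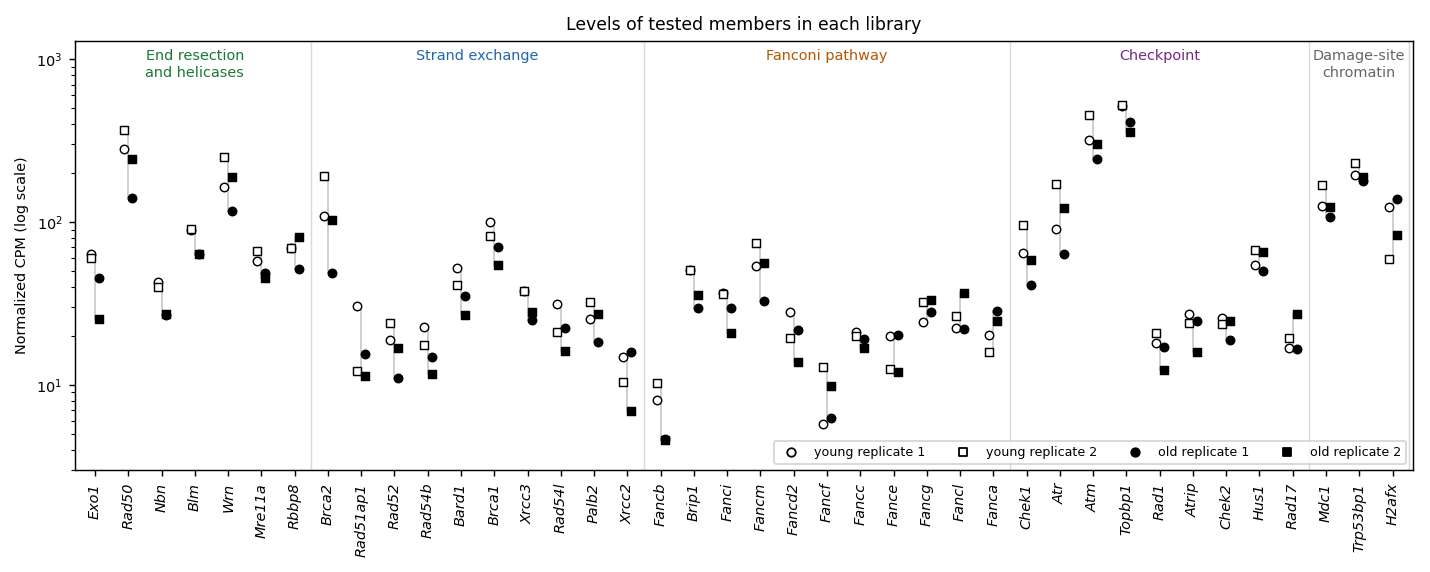
Level of each of the 40 tested members in normalized CPM (log axis), grouped by role and ordered within a role by log2 fold change. Open symbols are young and filled symbols old libraries, with circles for replicate 1 and squares for replicate 2. In 21 members both filled points lie below both open points, such as *Blm* and *Nbn*, and in *Fanca* both lie above.

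Promoters were read for description only, and a link between their letters and the age difference was not tested. The windows of 5 members with E2F letters are printed. RefSeq promoters (GRCm38.p6, from 250 bases before to 50 bases after an annotated start) were matched for 32 of the 42 members. Motifs for E2F, the transcription factor family that drives genes of DNA replication, were searched on both strands as TTTGGCGC, TTTCCCGC, TTTCGCGC and TTTGCCGC (none of these runs holds CCAAT or the cell cycle letters named next). They were found in 7 of 32 members (21.9%), namely *Bard1*, *Brca2*, *Rad51c*, *Fancg*, *Chek2*, *Topbp1* and *Mdc1*, against 2.6% of 27025 genes with a promoter and 5.21% of 7619 tested genes with one. The CCAAT letters were found in 18 of 32 members (56.2%) against 43.4% of tested genes, and the cell cycle letters TTTGAA or TTCGAA in 3 of 32 (9.38%) against 16.4%. In the following sequences, each from 5′ to 3′ on the strand of its gene, the capitals mark the E2F letters on either strand. The *Brca2* window (chr5:150522371-150522670, plus strand), the *Topbp1* window (chr9:103305077-103305376, plus strand), the *Bard1* window (chr1:71102923-71103222, minus strand), the *Mdc1* window (chr17:35841248-35841547, plus strand) and the *Fancg* window (chr4:43010252-43010551, minus strand) are printed in this order.
Brca2: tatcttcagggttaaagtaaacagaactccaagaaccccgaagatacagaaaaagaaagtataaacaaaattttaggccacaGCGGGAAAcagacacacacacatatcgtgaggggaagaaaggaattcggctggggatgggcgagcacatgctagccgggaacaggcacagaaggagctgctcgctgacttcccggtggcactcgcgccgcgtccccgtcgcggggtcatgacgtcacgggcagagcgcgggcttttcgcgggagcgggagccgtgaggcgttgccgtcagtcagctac
Topbp1: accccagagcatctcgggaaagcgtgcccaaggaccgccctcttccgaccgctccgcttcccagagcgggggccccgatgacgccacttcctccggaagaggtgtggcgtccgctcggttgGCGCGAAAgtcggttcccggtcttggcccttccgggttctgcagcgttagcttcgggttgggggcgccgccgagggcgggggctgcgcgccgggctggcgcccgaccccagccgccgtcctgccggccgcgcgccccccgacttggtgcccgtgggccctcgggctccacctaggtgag
Bard1: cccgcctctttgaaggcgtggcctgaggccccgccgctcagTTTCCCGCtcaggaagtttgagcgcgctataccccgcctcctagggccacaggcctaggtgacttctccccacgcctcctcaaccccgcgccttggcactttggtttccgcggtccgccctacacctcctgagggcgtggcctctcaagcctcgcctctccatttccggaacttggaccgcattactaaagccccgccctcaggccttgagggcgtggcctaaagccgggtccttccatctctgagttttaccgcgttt
Mdc1: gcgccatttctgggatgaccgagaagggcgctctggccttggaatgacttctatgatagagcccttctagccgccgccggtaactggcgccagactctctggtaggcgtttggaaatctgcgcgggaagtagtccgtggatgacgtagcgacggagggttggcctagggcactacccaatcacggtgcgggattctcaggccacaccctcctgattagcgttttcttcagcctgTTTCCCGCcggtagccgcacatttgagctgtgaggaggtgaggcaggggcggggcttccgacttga
Fancg: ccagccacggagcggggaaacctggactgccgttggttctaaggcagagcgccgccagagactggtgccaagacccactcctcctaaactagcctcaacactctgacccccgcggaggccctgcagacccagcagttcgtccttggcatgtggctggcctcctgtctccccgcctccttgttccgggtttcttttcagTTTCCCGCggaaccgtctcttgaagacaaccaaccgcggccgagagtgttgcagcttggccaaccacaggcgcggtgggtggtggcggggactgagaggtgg
The match began 168 bases before the start in *Brca2*, 129 before in *Topbp1*, 209 before in *Bard1*, 16 before in *Mdc1* and 52 before in *Fancg*. The log2 fold changes of genes with E2F letters were -0.99 in *Brca2*, -0.59 in *Bard1*, -0.44 in *Topbp1*, -0.34 in *Mdc1*, -0.19 in *Chek2* and 0.12 in *Fancg*. *Rad51c* was under the filter, and differences among these genes were not tested. A match of letters does not show a bound factor.

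Genes of end resection and of the repair helicases had lower estimates in 7 of 7 cases, with a median log2 fold change of -0.50. *Rad50*, which encodes the tethering subunit of the nuclease complex that senses and trims broken ends, was at 282 and 368 normalized CPM in young replicates 1 and 2 and at 141 and 243 in old replicates 1 and 2. Both old libraries lay below both young ones, and replicate 2 was the higher in each age. The log2 fold change was -0.76 (standard error 0.36), and it ran from -1.23 to -0.38 with a library left out. The other subunits of this complex also had both old libraries below both young ones. *Mre11a*, its nuclease, was at 57.9 and 66.8 in the young libraries, against 48.8 and 45.5 in the old. *Nbn*, its link to the ATM kinase, was at 42.8 and 40.2 in the young libraries, against 26.9 and 27.5 in the old, with a log2 fold change of -0.61 and libraries close together within each age.

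*Exo1*, the nuclease that extends resection, was at 63.7 and 60.5 normalized CPM in the young libraries, against 45.3 and 25.5 in the old, a log2 fold change of -0.80 (standard error 0.35). Its young libraries agreed closely while old replicate 2 lay well below old replicate 1. Leaving out old replicate 1 gave -1.25, and leaving out old replicate 2 gave -0.48. *Blm*, the helicase that dissolves joined molecules, was at 89.8 and 90.8 in the young libraries, against 63.9 and 64.1 in the old. The libraries of an age were close together, with a log2 fold change of -0.50 (standard error 0.24) that ran from -0.53 to -0.46 with a library left out, and its unadjusted p from the edgeR fit was 0.0872. *Wrn*, the Werner syndrome helicase, was at 164 and 251 in the young libraries, against 118 and 190 in the old, so the ages overlapped. *Rbbp8*, which encodes the resection factor CtIP, was at 69.6 and 69.7 in the young libraries, against 51.6 and 81.0 in the old, and its estimate of -0.07 turned to 0.26 without old replicate 1.

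Genes of strand exchange also had lower estimates in every tested case, 10 of 10, with a median log2 fold change of -0.56. *Brca2*, which acts on the trimmed single strands, was at 108 and 191 normalized CPM in the young libraries, against 48.6 and 103 in the old. Old replicate 2 was only just below young replicate 1, and replicate 2 was about as far above replicate 1 within each age as young was above old. The log2 fold change was -0.99 (standard error 0.47), and ran from -1.64 without old replicate 2 to -0.49 without old replicate 1. It is encoded at chr5:150522630-150570329 (GRCm38, plus strand), and its longest annotated transcript has 10724 bases.

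*Brca1*, which with *Bard1* forms a ubiquitin ligase that promotes resection, was at 100 and 81.9 normalized CPM in the young libraries, against 70.3 and 54.5 in the old. *Bard1* was at 52.2 and 41.2 in the young libraries, against 35.0 and 27.0 in the old. Both genes showed the same order, young replicate 1 highest and old replicate 2 lowest, and nearly the same log2 fold change, -0.54 and -0.59 (standard errors 0.28 and 0.31). With a library left out they ran from -0.70 to -0.39 and from -0.76 to -0.41. *Xrcc3*, a gene of strand exchange, was at 38.0 and 37.6 in the young libraries, against 25.2 and 27.9 in the old, without overlap. Among the others, *Palb2*, which bridges BRCA1 and BRCA2, and the motor gene *Rad54l* had libraries that overlapped, at -0.34 and -0.45. *Rad54b* and *Rad52* had no overlap, at -0.59 and -0.64. *Rad51ap1*, a stimulator of strand exchange, was at 30.4 in young replicate 1 and 11.3 to 15.5 in the other libraries, so that its log2 fold change of -0.67 became 0.15 without that library. *Xrcc2*, also of strand exchange, was at 6.97 to 16.0 with the ages overlapping. *Rad51c*, whose levels were under the filter and not tested, was counted in 86 and 42 young and 31 and 9 old fragments, or 5.03 and 6.73 against 2.58 and 1.96 normalized CPM.

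**Figure D2:**
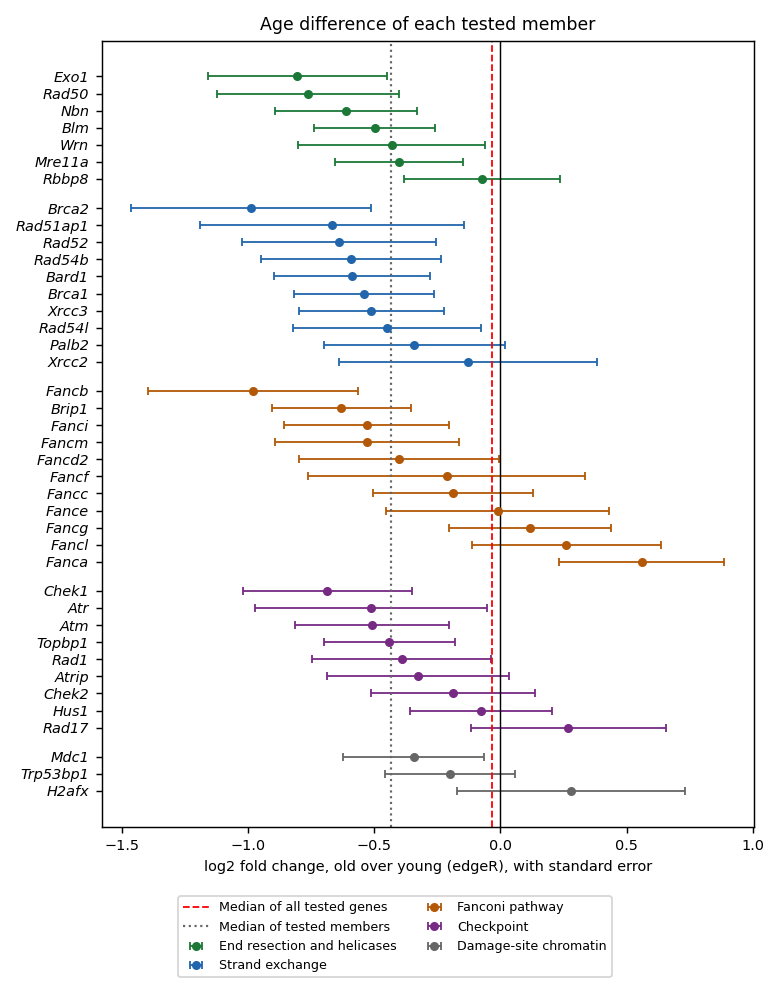
Log2 fold change from young to old ETP for each tested member, with its standard error from edgeR, colored by role. The dashed line is the median of all tested genes (-0.03) and the dotted line that of the 40 members (-0.44). All points of end resection and strand exchange lie below 0, while *Fanca*, *Fancl*, *Fancg*, *Rad17* and *H2afx* lie above.

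The Fanconi genes had estimates in both directions, with 8 of 11 lower and a median log2 fold change of -0.21. Their core complex is a ubiquitin ligase. Among the core genes, *Fanca* was at 20.2 and 16.0 normalized CPM in the young libraries, against 28.6 and 24.9 in the old. It was the only member whose old libraries both lay above the young ones, with a log2 fold change of 0.56 (standard error 0.33) that stayed between 0.41 and 0.74 with a library left out. *Fancg* was at 24.5 and 32.2 in the young libraries, against 28.1 and 33.3 in the old, and *Fancl*, the ligase subunit itself, at 22.4 and 26.4 in the young libraries, against 21.9 and 36.8 in the old. These estimates of 0.12 and 0.26 changed sign on the FPKM scale, where the median of all tested genes was itself -0.27 on log2(FPKM + 1). The core genes *Fancc*, *Fance* and *Fancf* had estimates from -0.21 to -0.01, without overlap in *Fancc* alone, and *Fancf* varied more within the young (5.79 and 12.8) than between the ages.

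*Fancb* stood at the other end of the core complex, at 8.07 and 10.3 normalized CPM in the young libraries, against 4.66 and 4.58 in the old, on 138 and 64 young and 56 and 21 old fragments. Its log2 fold change was -0.98 (standard error 0.42). *Fancm*, the translocase that anchors the complex on DNA, was at 53.8 and 74.2 in the young libraries, against 32.9 and 56.0 in the old, where old replicate 2 lay above young replicate 1. The targets of the ligase, *Fancd2* and *Fanci*, had estimates of -0.40 and -0.53. *Fanci* was at 36.7 and 36.3 in the young libraries, against 29.7 and 20.8 in the old, with no overlap, while for *Fancd2* the ages overlapped. *Brip1*, the helicase that binds BRCA1, was at 50.6 and 50.6 in the young libraries, against 29.8 and 35.7 in the old, a log2 fold change of -0.63 (standard error 0.28) that ran from -0.79 to -0.46 with a library left out.

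Among the checkpoint genes, 8 of 9 tested had lower estimates, with a median log2 fold change of -0.39. *Topbp1*, which switches on the ATR kinase at stalled forks (chr9:103305215-103350428, GRCm38, plus strand), was at 516 and 528 normalized CPM in the young libraries, against 411 and 358 in the old. With *H2afx* it had the highest level per transcript length of all members, a mean of 32.6 FPKM over the libraries, where the members' median was 4.03. Its log2 fold change was -0.44 (standard error 0.26), and it kept between -0.50 and -0.37 whichever library was left out. *Chek1*, the kinase that ATR activates, was at 64.6 and 96.3 in the young libraries, against 41.3 and 58.8 in the old, without overlap and with a log2 fold change of -0.69 (standard error 0.34) that ran from -0.98 to -0.37 with a library left out.

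*Atm*, the kinase that answers broken ends, was at 321 and 456 normalized CPM in the young libraries, against 244 and 302 in the old. *Atr*, the kinase that answers stalled forks, was at 91.3 and 172 in the young libraries, against 63.6 and 121 in the old. Both had log2 fold changes near -0.51, but the libraries of *Atm* did not overlap and those of *Atr* did, with replicate 2 above replicate 1 by 0.92 in young and 0.93 in old ETP on the log2 scale. Without young replicate 2 the estimate of *Atr* was 0.02. *Atrip*, the partner of ATR, had an estimate of -0.33, *Chek2*, the kinase downstream of ATM, one of -0.19, and *Rad17*, the clamp loader, one of 0.27, each with overlapping ages. Of the checkpoint clamp, *Rad1* was at 18.0 and 20.98 in the young libraries, against 17.1 and 12.4 in the old and *Hus1* at 54.5 and 67.3 against 50.3 and 65.1. *Rad9a* was listed at 0 in all 4 libraries, and whether its transcript was absent or not counted was not tested. *Clspn*, the mediator between ATR and CHK1, was at 64.0 and 43.1 in the young libraries, against 38.9 and 50.3 in the old, a log2 fold change of -0.27 (standard error 0.32) with overlapping ages.

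Of the chromatin genes of the damage response, 2 of 3 had lower estimates, with a median log2 fold change of -0.20. *Mdc1*, the scaffold that binds phosphorylated H2AX, was at 126 and 168 normalized CPM in the young libraries, against 108 and 124 in the old. *Trp53bp1*, which holds back resection and favors end joining, was at 194 and 229 in the young libraries, against 179 and 190 in the old. In both genes the old libraries lay just below the young ones, with log2 fold changes of -0.34 and -0.20 (standard errors 0.28 and 0.26). With a library left out *Mdc1* ran from -0.54 to -0.12 and *Trp53bp1* from -0.32 to -0.07. *H2afx*, the gene of the histone variant itself, was at 123 and 59.3 in the young libraries, against 139 and 83.2 in the old. Here replicate 1 was the higher in each age, and the estimate of 0.28 turned to -0.15 without young replicate 2 and -0.11 without old replicate 1.

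Members with long transcripts differed between replicates of an age in the same direction in young and old ETP. Of 10 members whose longest annotated transcript has at least 6000 bases, 8 were higher in replicate 2 than in replicate 1 in young and 8 in old ETP, with median log2 ratios of 0.44 and 0.28. The 12 members under 3000 bases had medians of -0.05 and 0.09. Across the 40 members the Pearson correlation of this ratio with log2 length was 0.38 in young and 0.22 in old, and 0.29 and 0.23 across 9461 tested genes. All values come from the same libraries, and genes are not independent replicates. Replicate 2 held fewer fragments than replicate 1 in each age, and the part of depth in this pattern was not tested. The age difference also varied with length, with a median of -0.52 and 0 of 10 above 0 in the long members and a median of -0.20 in the short ones. This correlation was -0.38 across the members and -0.08 across tested genes. The part that library differences of this kind play in the age difference was not tested.

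**Figure D3:**
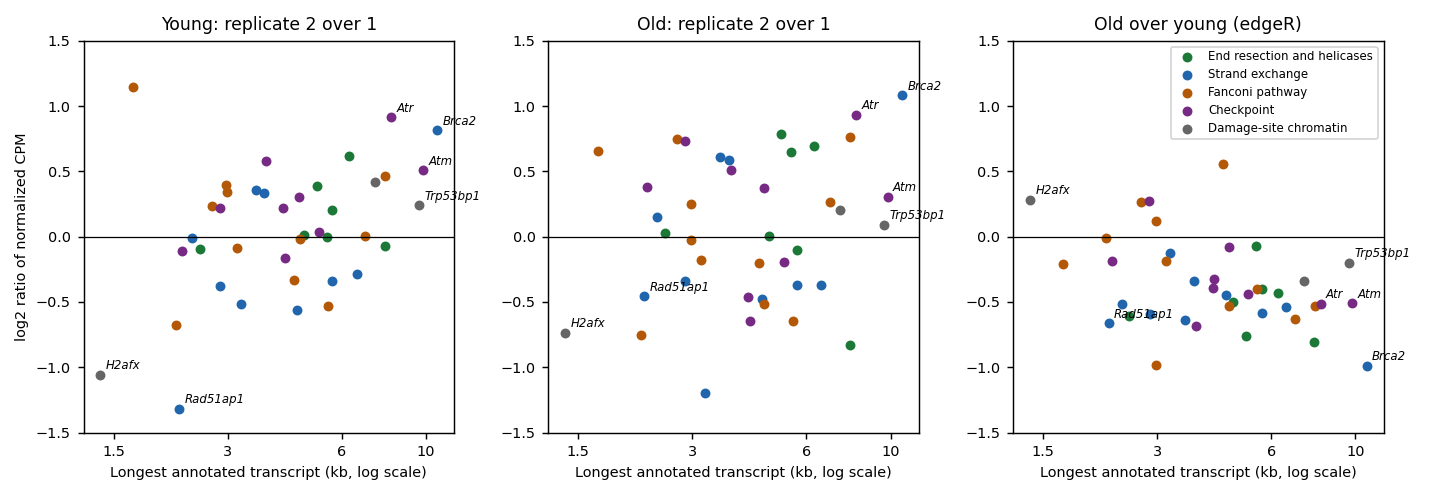
Log2 ratio of normalized CPM against the length of the longest annotated transcript (log scale) for the 40 tested members, for replicate 2 over 1 in young (left), replicate 2 over 1 in old (middle) and old over young (right). *Brca2* and *Atr* lie above 0 in the first panels and *H2afx* below, and in the right panel all members of at least 6 kb lie below 0.

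The rest of the same pathways was examined in 81 further genes, of which 76 were tested. Their estimates were lower in 56 and higher in 20, with a median log2 fold change of -0.19, beside -0.44 for the members (the difference between the lists was not tested). Both old libraries lay below both young in 16 of them (21.05%) and above in 7, against 15.5% and 16.1% of all tested genes. In edgeR 0 passed in either direction and 0 had an unadjusted p under 0.05, and DESeq2 and limma called 0. For recombination, 20 of 29 were lower (median -0.23). The single-strand binding genes *Rpa1* and *Rpa2* and the recombination accessory gene *Sfr1* had estimates of -0.09, -0.31 and -0.29 with overlapping libraries. For the Fanconi pathway, 9 of 14 were lower (median -0.18). *Usp1*, the enzyme that removes the ubiquitin mark from FANCD2, was at 181 and 208 normalized CPM in the young libraries, against 127 and 134 in the old, without overlap and at -0.58 (standard error 0.25). *Rev3l*, a translesion polymerase gene, and *Rfwd3*, a ubiquitin ligase gene, had overlapping libraries at -0.37 and -0.30.

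Of other checkpoint genes, 18 of 21 were lower (median -0.18). *Trp53*, the tumor suppressor at the end of the pathway, was at 416 and 436 normalized CPM in the young libraries, against 379 and 347 in the old, without overlap but by only -0.23 on the log2 scale. Its regulators *Mdm2* and *Mdm4* had estimates of 0.07 and -0.16 with overlapping libraries. Of the other chromatin genes of the damage response, 10 of 13 were lower (median -0.19). *Rif1*, an effector of *Trp53bp1*, was at 233 and 482 in the young libraries, against 144 and 338 in the old, with a wider gap between replicates than between ages. *Herc2* and *Paxip1* had estimates of -0.06 and -0.09.

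Genes of the cell cycle also mostly had lower estimates. Lower estimates were found for 39 of 40 S phase genes (median -0.41) and for 27 of 30 G2 and M phase genes (median -0.34), and in edgeR 0 of either list passed, while 2 S phase genes and 0 of G2 and M phase had an unadjusted p under 0.05. These S phase genes were lower in old ETP, and 0.913% of all tested genes had such a p and were lower. Relative to each gene's mean over the 4 libraries, the members' median log2 level was 0.14 and 0.24 in young replicates 1 and 2 and -0.23 and -0.18 in old replicates 1 and 2, so the ages were apart. The S phase median was 0.42 and -0.01 in the young libraries, against 0.07 and -0.53 in the old, and that of G2 and M phase was 0.56 and -0.29 in the young, against -0.06 and -0.15 in the old, so the ages overlapped in both lists. Among the roles, strand exchange had young replicate 1 highest and old replicate 2 lowest, as S phase did, with medians of 0.38 and 0.12 in the young libraries, against -0.12 and -0.44 in the old. Both old libraries lay below both young in 15 of the 40 S phase genes (37.5%) and in 4 of the 30 genes of G2 and M phase (13.3%). Among all tested genes this share was 15.5%. Of the 20 tested members set down here as cell cycle regulated, 18 had lower estimates (median -0.51), and of the 20 others 17 did (median -0.37). The library medians of the former were 0.29 and 0.12 in the young, against -0.10 and -0.44 in the old, and those of the latter 0.02 and 0.27, against -0.27 and -0.02, where young replicate 1 and old replicate 2 nearly met. The part of cell cycle differences in the members' values was not tested.

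**Figure D4:**
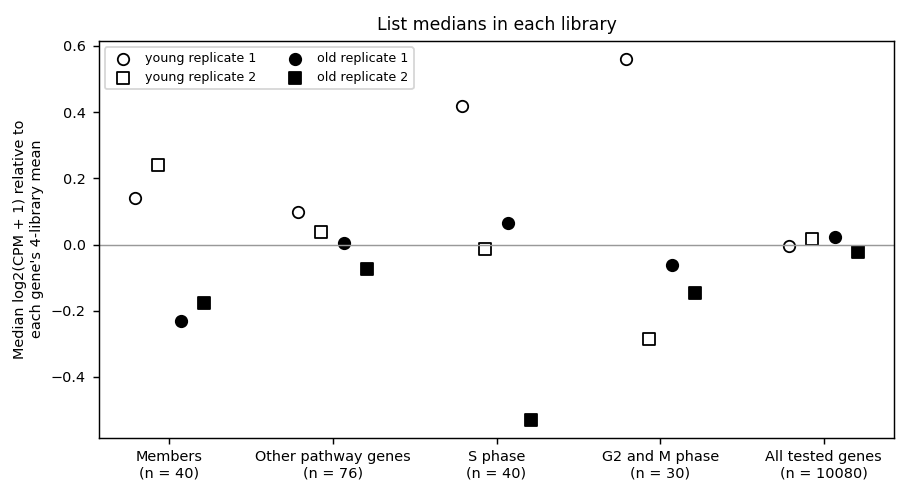
Median over each list of log2(CPM + 1) relative to a gene's mean over the 4 libraries, with 1 point per library. For the members the open points (young) lie at 0.14 and 0.24 and the filled points (old) at -0.23 and -0.18, while for S phase and for G2 and M phase genes the ages overlap.

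Of the 42 members, 21 have exons that overlap those of a different gene in GENCODE M21 (GRCm38), 3 of them on the same strand, such as *Rad54b* with *Fsbp* and *Atrip* with *Trex1*. The sources used here do not give the strand setting of the counting, so reads of such pairs may have been split between them.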

How the data were processed

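RNA of sorted ETP was measured in 4 libraries, 2 per age, grouped by the labels. The authors aligned reads with STAR 2.3.0 to GRCm38, and the table's columns are those that Cuffdiff (Cufflinks 2.1.1) writes. Its deposited estimated counts are fragments per gene, 95.7% to 96.1% of them whole within 1e-06. The FPKM column, also deposited, was used for the filter and for limma. Filters, strand and treatment of multiple alignments are not given in the sources used here, and 1 column of scaled fragments was not used. The labels do not tie the table's replicate numbers to samples.

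Estimated counts were rounded and compared between ages with edgeR 4.0.16 (quasi-likelihood, TMM, age as the only term, R 4.3.3) over 10080 genes (FPKM of 1 or more in 2 or more libraries), with Benjamini-Hochberg adjustment over all of them and a threshold of 0.05. With 1 library left out, the lone library was taken to be as variable as the pair. The fit was tested on simulated counts. Alternatives were DESeq2 1.42.0, limma 3.58.1 on log2(FPKM + 1) and log2(FPKM + 0.1), other scalings and filters, a replicate term and fits without 1 library. The libraries of an age differed by a chi-square per gene of 71.1 (young) and 83.3 (old), so none were copies. Members and gene lists were chosen with earlier results of these data known. Library values are given for the 4 members of each role with the highest level, those called under any alternative and those outside the filter, and for 3 genes per list of other pathway genes. *Mre11a*, *Nbn*, *Fanca*, *Fancb*, *Rad51ap1*, *Rad1*, *Hus1*, *Fancg*, *Fancl* and *Clspn* were described, and the lengths that split long from short transcripts set, after values were seen. Some results for other genes are not reported here.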

Additional observations from a re-analysis of the deposited data

How the results depend on the processing

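Members with a lower estimate numbered 32 to 38 over the settings run, of 40 tested or, without a filter or with the filter of edgeR, also *Rad51c*, and their median stayed below 0 in each. Depth bears most on *Rad51c* (9 to 86 fragments per library) and *Fancb* (21 to 138). edgeR called 0 genes higher and 0 lower; DESeq2 called 210 and 15, the fit without a filter 474 and 34, and fits without 1 library 0 to 218 and 0 to 3, the highest without old replicate 1. With the replicate block 578 and 199 of 10080 genes were called, and 4 members (*Brca2*, *Chek1*, *Exo1*, *Rad50*), all lower. The sources give these libraries only a shared number, but replicate 2 was also the shallower library in each age. The replicate 1 minus 2 differences of young and old correlated at 0.734 across genes, and the cause was not tested. The block changed no other call of the members.

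Medians on log2(FPKM + 1) and log2(FPKM + 0.1) were -0.559 and -0.716 for the members, -0.675 and -0.781 for resection, -0.328 and -0.459 for Fanconi, -0.56 and -0.691 for checkpoint and -0.431 and -0.476 for chromatin members. They were -0.383 and -0.485, -0.386 and -0.482, -0.417 and -0.475, and -0.534 and -0.566 for the other recombination, Fanconi, checkpoint and chromatin genes, -0.246 and -0.295 for p53 targets, -0.641 and -0.719 for S phase genes and -0.27 and -0.327 for all tested genes. With 0.1 they were -0.797 for strand exchange and -0.784 for cell cycle regulated members. Upper quartile scaling gave -0.22 for the other Fanconi genes and -0.069 for all genes, and no filter 0.006 for all genes.

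With 1 library left out, medians ran from -0.477 to -0.333 for the members, -0.564 to -0.412 for resection, -0.279 to -0.144 for Fanconi, -0.456 to -0.241 for checkpoint, -0.692 to -0.398 for strand exchange and -0.315 to -0.113 for chromatin members, -0.24 to -0.014, -0.14 to 0.041 and -0.315 to -0.043 for the other recombination, Fanconi (above 0 without old replicate 1) and chromatin genes, -0.111 to 0.457 for p53 targets, -0.749 (without old replicate 1) to -0.167 (without young replicate 1) for S phase, -0.667 to 0.187 for G2 and M phase (above 0 without young replicate 1) and -0.027 to 0.006 for all genes.

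Of 61 named genes, 24 changed sign in at least 1 setting. With 1 library left out the ranges were -0.458 to 0.257 (*Rbbp8*), -0.834 to 0.294 (*Xrcc2*), -1.168 to 0.149 (*Rad51ap1*), -0.416 to 0.374 (*Fance*), -0.69 to 0.455 (*Fancf*), -0.07 to 0.323 (*Fancg*), -0.176 to 0.635 (*Fancl*), -1.066 to 0.016 (*Atr*), -0.415 to 0.033 (*Chek2*), -0.157 to 0.638 (*Rad17*), -0.297 to 0.141 (*Hus1*), -0.15 to 0.906 (*H2afx*), -0.523 to 0.048 (*Clspn*), -0.695 to 0.181 (*Sfr1*), -0.24 to 0.073 (*Rpa1*), -0.694 to 0.048 (*Rpa2*), -1.061 to 0.152 (*Rev3l*), -0.723 to 0.062 (*Rfwd3*), -0.459 to 0.219 (*Mdm4*), -0.152 to 0.268 (*Mdm2*), -1.326 to 0.047 (*Rif1*), -0.187 to 0.078 (*Herc2*), -0.233 to 0.079 (*Paxip1*) and -1.416 to 0.214 (*Mki67*). On the same 2 FPKM scales *Fancg* was at -0.127 and -0.156, *Fancl* at -0.06 and -0.067, *Rad17* at -0.038 and -0.045 and *Mdm2* at -0.224 and -0.235, and *Fance* was at 0.001 with edgeR's own filter. The cause of these changes was not tested.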

Other observations

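Genes that the tumor suppressor p53 activates after DNA damage had estimates on both sides of 0. In this list 14 were tested, 7 lower and 7 higher (median log2 fold change of -0.02), 0 passed edgeR, and 2 had an unadjusted p under 0.05, both higher in old ETP. Of all tested genes, 4.65% had such a p and were higher. Both old libraries lay above both young in 4 of the 14 and below in 0, against 16.1% and 15.5% of all tested genes. *Pmaip1*, a pro-apoptotic gene, was at 6.96 and 2.40 normalized CPM in the young libraries, against 28.4 and 22.9 in the old (edgeR adjusted p = 0.410, DESeq2 adjusted p = 0.00474). *Sesn2*, a stress-response gene, was at 5.91 and 5.77 in the young libraries, against 13.0 and 10.9 in the old (edgeR adjusted p = 0.831). These were picked out by their values. At higher levels stood *Btg2*, an antiproliferative gene, at 169 and 53.3 in the young libraries, against 278 and 234 in the old. *Trp53inp1* was at 137 and 248 in the young libraries, against 115 and 156 in the old, a log2 fold change of -0.51 with overlapping ages. *Sesn1* was at 139 and 168 against 149 and 101.3.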
